A study of Mus musculus with 12 samples.

Results

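The glucocorticoid and FOXO stress response genes described here are the glucocorticoid receptor Nr3c1, 6 genes that the receptor or FOXO factors are known to switch on (Fkbp5, Sgk1, Tsc22d3, Zbtb16, Ddit4 and Depp1) and the FOXO transcription factors Foxo1 and Foxo3. These 9 genes of the 14317 in the expression table were chosen by name, and with the difference between the groups of these same samples already known, Depp1 for its large rise. Their differences between the groups are therefore given as a description, without p-values, and calls are only counted beside the share called over all genes.

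Cortisol in humans and corticosterone in mice are released by the adrenal gland under stress. They enter cells and bind the glucocorticoid receptor, which is held by heat shock proteins until the hormone arrives and then moves to the nucleus and binds palindromic DNA elements. FOXO factors are transcription factors that AKT and SGK kinases phosphorylate and thereby keep out of the nucleus, so that growth factor signalling lowers their activity. In the brain both systems are known for their roles in metabolism, survival and the response to injury, and several genes, among them Sgk1 and Ddit4, connect them.

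The samples were the ischemic penumbra of the cortex on the operated side from 6 Sham mice and 6 tMCAO/R mice, with 1 mRNA library per mouse. tMCAO/R stands for transient occlusion of the middle cerebral artery followed by reperfusion, here with 60 min of occlusion and 24 h of reperfusion, and Sham mice were the sham-operated controls. The study's methods describe all mice as male C57BL/6J, an inbred laboratory strain, of 8 weeks. Values are FPKM, in which the fragment count of a gene is divided by its length and by the size of the library, and they came from 13481324 to 15796322 fragments per Sham library and 13046852 to 14977736 per tMCAO/R library.

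Some libraries stood apart or went against their description. The 4 Y-linked genes examined summed to 0 FPKM in every Sham library and to between 7.79 and 15.9 FPKM in the tMCAO/R libraries, so the description as male did not match the Sham libraries, and sex and surgery cannot be told apart. The summed hippocampal markers lay between 149 and 245 FPKM in Sham and between 6.38 and 8.79 FPKM in tMCAO/R libraries, whereas the cortical markers lay between 14.0 and 19.7 FPKM in Sham and between 52.0 and 102 FPKM in tMCAO/R libraries. Striatal markers reached 346 FPKM in tMCAO/R mice against at most 28.4 FPKM in Sham mice. Choroid plexus markers (33.1 to 1859 FPKM in Sham, 0.728 to 4.39 FPKM in tMCAO/R) and oligodendrocyte markers (660 to 1578 FPKM in Sham, 359 to 641 FPKM in tMCAO/R) were lower in every tMCAO/R library. The tissue taken and the surgery therefore cannot be told apart either, and a lower FPKM cannot be separated into fewer cells of a type and less RNA per cell. The library of tMCAO/R mouse 4 lay apart on the second principal component, with a median Spearman correlation of 0.934 with its group, compared with 0.971 to 0.980 in the other tMCAO/R mice. Mitochondrial genes took 8.69% of its fragments, 2.85% to 4.66% in the other tMCAO/R libraries and 5.29% to 8.51% in the Sham libraries, and the part of this share in the results was not tested.

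The promoters of the target genes are shown first, because the palindrome is a known binding sequence of the receptor, which also binds variant and distal sites that were not searched. In the RefSeq promoter sequences of the mouse build GRCm38.p6, each 300 bases long, 7 of the 9 genes were found with 14 promoters between them, and Nr3c1 and Zbtb16 are named only. The palindrome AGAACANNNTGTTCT was searched on both strands, together with its single arm TGTTCT (or AGAACA on the other strand, which overlaps the palindrome) and the FOXO element TGTTTAC (or GTAAACA). The 250 bases before the start of 1 promoter each of Sgk1, which holds the whole palindrome, of Tsc22d3, which holds a single arm, and of Depp1, the gene with the largest difference between the groups, are printed from 5′ to 3′ on the strand of the gene, with the matching letters in capitals.
Sgk1, chr10:21993640-21993889, plus strand: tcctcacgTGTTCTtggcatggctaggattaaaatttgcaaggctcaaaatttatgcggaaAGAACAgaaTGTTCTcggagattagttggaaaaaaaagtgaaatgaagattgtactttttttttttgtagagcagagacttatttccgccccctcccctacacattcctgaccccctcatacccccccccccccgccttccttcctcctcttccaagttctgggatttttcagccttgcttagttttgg
Tsc22d3, chrX:140600523-140600772, minus strand: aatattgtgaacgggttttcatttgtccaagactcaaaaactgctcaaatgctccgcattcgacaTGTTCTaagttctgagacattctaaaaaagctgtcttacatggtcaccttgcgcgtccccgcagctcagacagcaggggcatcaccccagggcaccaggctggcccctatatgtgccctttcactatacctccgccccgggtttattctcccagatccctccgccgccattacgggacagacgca
Depp1, chr6:116650434-116650683, plus strand: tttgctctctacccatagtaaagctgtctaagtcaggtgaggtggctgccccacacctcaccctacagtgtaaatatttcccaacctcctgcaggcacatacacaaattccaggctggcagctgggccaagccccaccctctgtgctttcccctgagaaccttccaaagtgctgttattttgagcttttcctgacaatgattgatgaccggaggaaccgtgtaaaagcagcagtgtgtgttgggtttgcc

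The palindrome stood in the Sgk1 promoter as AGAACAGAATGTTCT, with its first base at position -189 from the start. It was found in 3 of all 32851 promoters of the table (0.00913%). The single arm was found in 4 of the 14 promoters, 3 of Sgk1 and 1 of Tsc22d3 (first base at -185), and in 19.0% of all promoters. The FOXO element was found in 0 of the 14 promoters and in 3.65% of all promoters. Only its exact letters were searched. Variant forms of the FOXO element were not, so the 0 does not show that these promoters, Depp1 among them, lack a FOXO site. A match gives the letters of these windows only.

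The receptor itself differed little between the groups. Nr3c1 (GRCm39 chr18:39543598-39652474, minus strand, 9 exons), the receptor for glucocorticoids, was measured at 3.29, 2.93, 2.67, 2.79, 3.47 and 4.19 FPKM in Sham mice 1 to 6 and at 4.23, 4.09, 3.41, 5.13, 3.39 and 3.37 FPKM in tMCAO/R mice 1 to 6. The groups overlapped, and 2 of 6 tMCAO/R mice lay above the highest Sham mouse. The Sham mean was 3.22 ± 0.561 FPKM and the tMCAO/R mean 3.94 ± 0.698 FPKM (± SD over 6 mice per group, as for all means here), and the log2 difference was 0.22 with a standard error of 0.11. The log2 differences are tMCAO/R minus Sham on the scale of log2(FPKM + 1), which understates the change of genes with low FPKM.

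Fkbp5 (GRCm39 chr17:28618058-28737521, minus strand, 11 exons) encodes FKBP51, a co-chaperone that lowers the hormone affinity of the receptor and so closes a feedback loop. It was measured at 2.50, 2.12, 2.56, 2.16, 2.28 and 2.37 FPKM in Sham mice 1 to 6 and at 4.82, 7.21, 7.51, 5.52, 6.81 and 4.98 FPKM in tMCAO/R mice 1 to 6. Every tMCAO/R mouse lay above every Sham mouse, and the Sham mice were closest to each other here among the 9 genes, with a coefficient of variation of 7.72%. The mean went from 2.33 ± 0.180 to 6.14 ± 1.18 FPKM, a 2.63-fold difference, and the log2 difference was 1.08 with a standard error of 0.11.

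Sgk1 (GRCm39 chr10:21758083-21875802, plus strand, 12 exons) encodes a kinase of the AKT family that acts on ion channels and on FOXO3. Its values were 3.39, 2.99, 2.92, 6.09, 3.02 and 3.61 FPKM in Sham mice 1 to 6 and 11.6, 11.1, 8.47, 12.6, 9.16 and 9.06 FPKM in tMCAO/R mice 1 to 6. The groups did not overlap, although Sham mouse 4 stood well above the other Sham mice. That library also held the highest Sham sums of choroid plexus markers (1859 FPKM against 33.1 to 343 FPKM in the other Sham mice), oligodendrocyte markers (1578 FPKM) and leukocyte markers (39.9 FPKM), and their part in its Sgk1 value was not tested. The means were 3.67 ± 1.21 and 10.3 ± 1.65 FPKM, 2.81-fold apart, with a log2 difference of 1.30 and a standard error of 0.15.

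Tsc22d3 (GRCm39 chrX:139440091-139501408, minus strand, 3 exons) encodes GILZ, a leucine zipper protein that carries part of the anti-inflammatory action of glucocorticoids. Sham mice 1 to 6 had 5.66, 6.40, 5.54, 7.46, 5.25 and 5.36 FPKM and tMCAO/R mice 1 to 6 had 10.3, 14.7, 17.1, 10.3, 12.6 and 11.0 FPKM. There was no overlap, and the highest Sham mouse was again mouse 4, at 7.46 FPKM. The means were 5.94 ± 0.844 and 12.7 ± 2.76 FPKM, a 2.13-fold difference, and the log2 difference was 0.96 with a standard error of 0.13. This gene lies on the X chromosome, and the libraries also differed by group in their Y-linked genes, whose part was not tested.

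Zbtb16 (GRCm39 chr9:48563141-48748664, minus strand, 7 exons) encodes the zinc finger repressor PLZF, a sensitive glucocorticoid target in many human cells. It was low in Sham mice, at 1.12, 1.18, 1.47, 0.982, 1.09 and 2.82 FPKM in mice 1 to 6, and was measured at 7.26, 5.99, 7.19, 5.56, 10.0 and 4.76 FPKM in tMCAO/R mice 1 to 6. The lowest tMCAO/R mouse lay above the highest Sham mouse, mouse 6, which stood apart from the other Sham mice. The means were 1.45 ± 0.696 and 6.79 ± 1.85 FPKM, 4.70-fold apart, with a log2 difference of 1.68 and a standard error of 0.17.

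Ddit4 (GRCm39 chr10:59785491-59788492, minus strand, 3 exons) encodes REDD1, which restrains mTORC1 and answers to hypoxia and energy stress as well as to glucocorticoids. It was measured at 31.6, 24.8, 22.1, 27.3, 28.6 and 22.0 FPKM in Sham mice 1 to 6 and at 37.4, 56.7, 53.1, 10.5, 58.0 and 53.4 FPKM in tMCAO/R mice 1 to 6. Of the tMCAO/R mice, 5 of 6 lay above every Sham mouse, and mouse 4 lay below every Sham mouse. The means were 26.1 ± 3.80 and 44.9 ± 18.4 FPKM, and the log2 difference was 0.59 with a standard error of 0.33. Without tMCAO/R mouse 4, the tMCAO/R mean was 51.7 FPKM and the log2 difference 0.96 with a standard error of 0.12. Mouse 4 was the lowest of the 6 tMCAO/R mice in 42.8% of all tested genes, and in 1 of the 9 genes described here.

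Depp1 (GRCm39 chr6:116627570-116629755, plus strand, 2 exons), also called DEPP or Fseg, encodes a small protein that FOXO factors induce and that is linked to peroxisomes and autophagy. It had 0.499, 0.320, 0.547, 0.901, 0.248 and 0.267 FPKM in Sham mice 1 to 6 and 5.40, 7.89, 6.18, 6.70, 3.37 and 3.50 FPKM in tMCAO/R mice 1 to 6. The lowest tMCAO/R mouse lay well above the highest Sham mouse, mouse 4. The means were 0.463 ± 0.247 and 5.51 ± 1.80 FPKM, an 11.9-fold difference. The Sham values rested on 11 to 37 fragments per library and the tMCAO/R values on 135 to 353. Its log2 difference of 2.12, with a standard error of 0.17, ranked 19 from the highest of the 11743 genes tested, and on the fragments, where no FPKM is added, it was 3.64. Only 2 of the 6 Sham mice reached the minimum of 0.5 FPKM, so Depp1 entered the comparison through the tMCAO/R group.

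**Figure D1:**
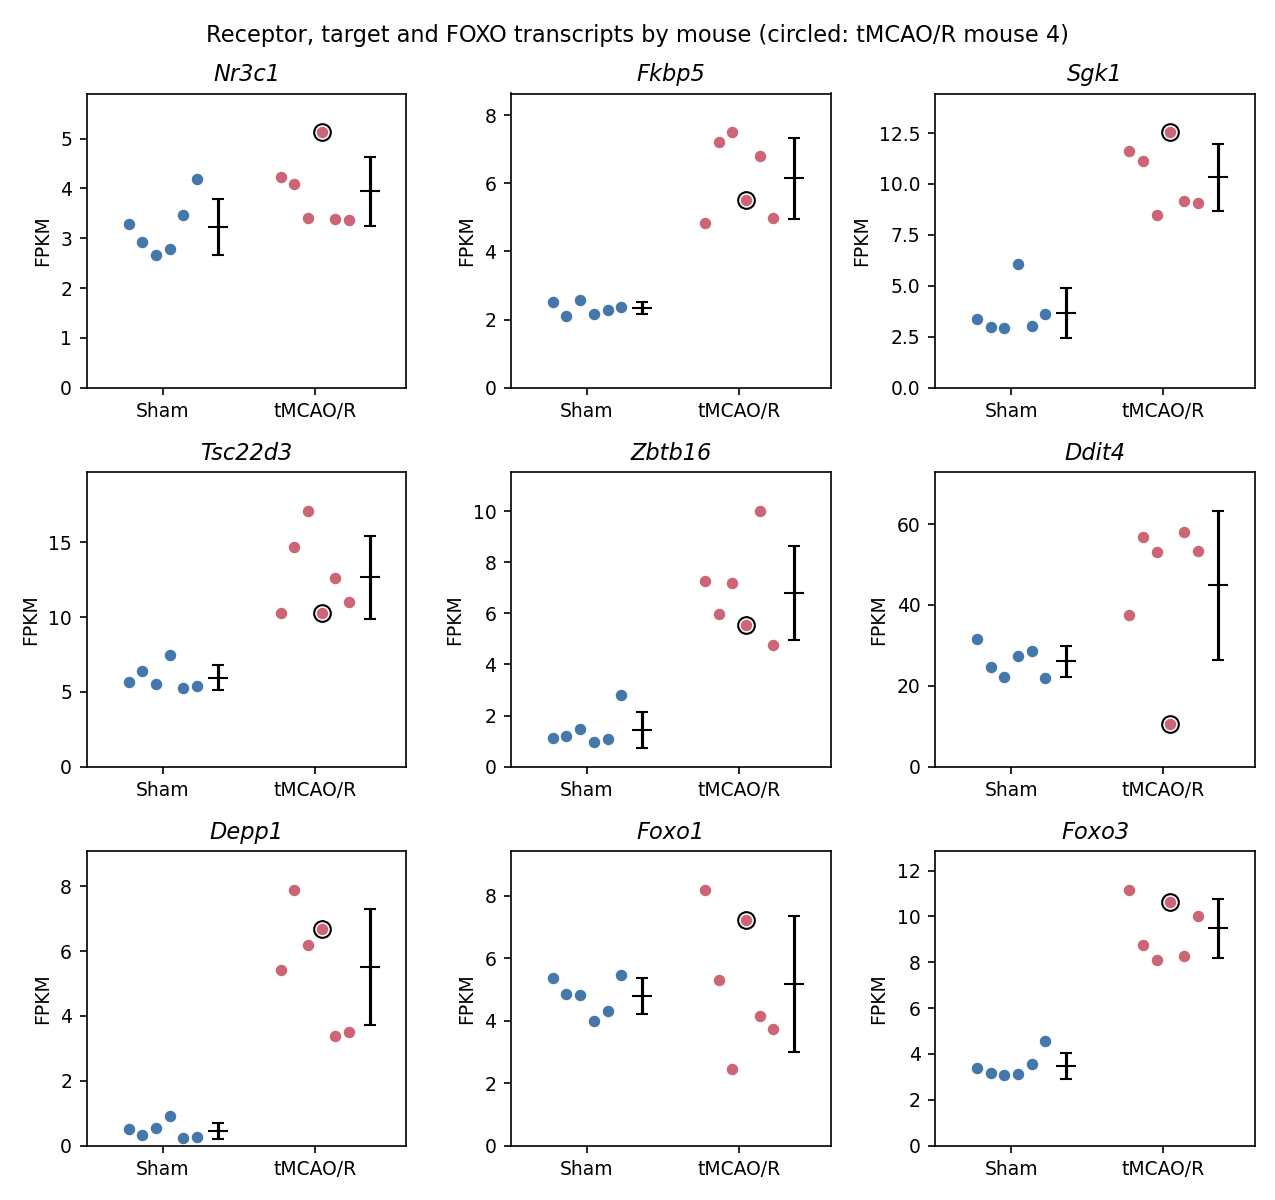
FPKM of the 9 genes in each of 6 Sham mice (blue) and 6 tMCAO/R mice (red), with the mean and SD beside the points and tMCAO/R mouse 4 circled. The groups do not overlap for Fkbp5, Sgk1, Tsc22d3, Zbtb16, Depp1 and Foxo3, and mouse 4 is the lowest point only for Ddit4, at 10.5 FPKM.

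The FOXO factors differed from each other. Foxo3 (GRCm39 chr10:42057837-42154007, minus strand, 4 exons), a factor for survival and autophagy genes in neurons, was measured at 3.40, 3.17, 3.09, 3.12, 3.55 and 4.55 FPKM in Sham mice 1 to 6 and at 11.2, 8.76, 8.09, 10.6, 8.26 and 10.0 FPKM in tMCAO/R mice 1 to 6. All tMCAO/R mice lay above all Sham mice. The means were 3.48 ± 0.554 and 9.48 ± 1.29 FPKM, 2.73-fold apart, and the log2 difference was 1.23 with a standard error of 0.10.

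Foxo1 (GRCm39 chr3:52175757-52260642, plus strand, 3 exons), best known for insulin-regulated metabolism, had 5.37, 4.84, 4.81, 3.98, 4.31 and 5.48 FPKM in Sham mice 1 to 6 and 8.19, 5.29, 2.46, 7.23, 4.17 and 3.75 FPKM in tMCAO/R mice 1 to 6. The tMCAO/R mice lay on both sides of the Sham mice, with mice 1 and 4 above every Sham mouse and mice 3 and 6 below. The coefficient of variation was 12.1% within Sham and 42.0% within tMCAO/R. The means were 4.80 ± 0.582 and 5.18 ± 2.18 FPKM, and the log2 difference was 0.02 with a standard error of 0.19. Summed striatal markers were 346, 201, 31.6, 32.7, 114 and 199 FPKM in tMCAO/R mice 1 to 6. Mouse 1 was highest and mouse 3 lowest in both the striatal sum and Foxo1, and mouse 4 had a low striatal sum and the second highest Foxo1 value. The part of striatal tissue in the Foxo1 values was not tested. The log2 difference of Foxo1 changed sign with quantile normalization and upper quartile scaling (-0.02 in both).

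The other family members were not among the 9 genes and are given for comparison, chosen after their values were seen. Foxo4 fell from 5.66 to 2.91 FPKM on average (log2 difference -0.75, adjusted p = 3.5e-04, limma), with no overlap between the groups. Foxo6 had 14.5 and 10.7 FPKM on average and did not pass the test (adjusted p = 0.0997).

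**Figure D2:**
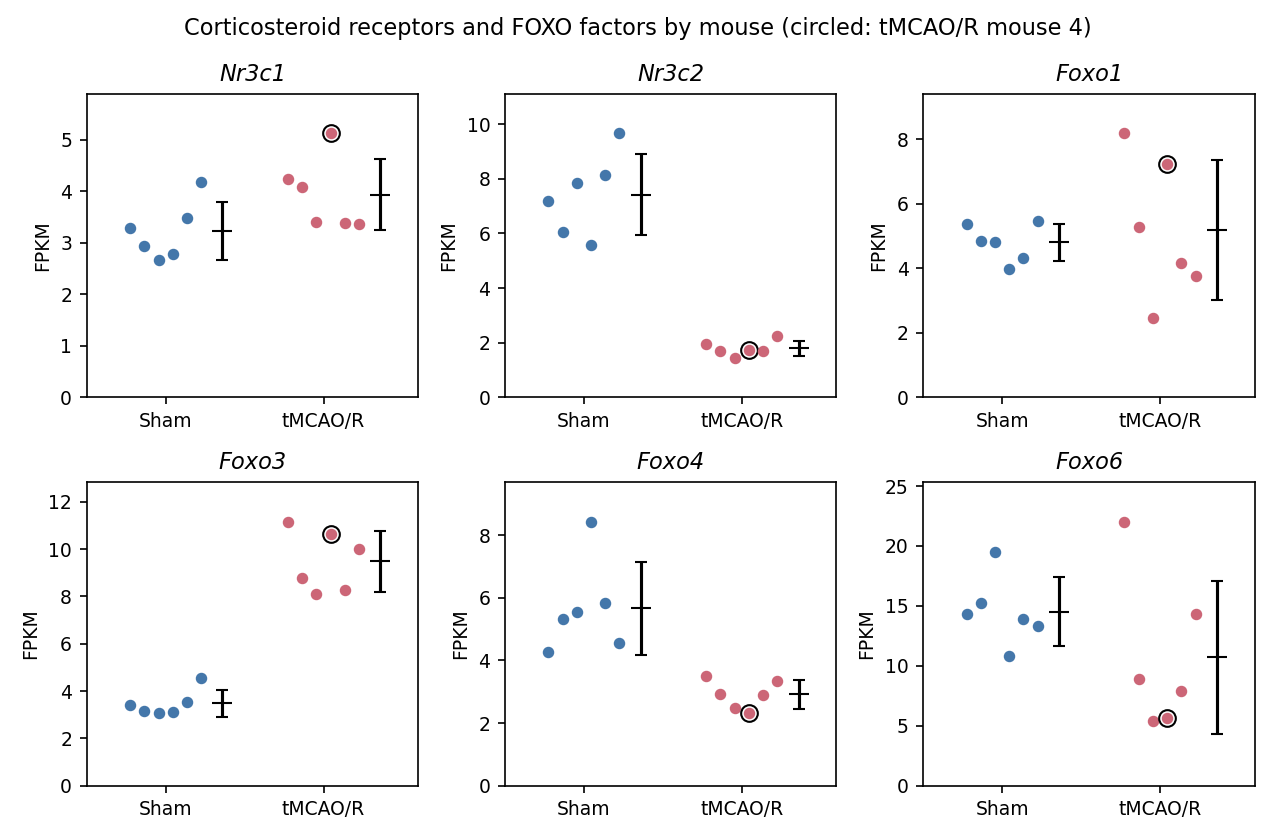
FPKM of the corticosteroid receptors Nr3c1 and Nr3c2 and of the 4 FOXO genes in each of 6 Sham mice (blue) and 6 tMCAO/R mice (red), with the mean and SD beside the points and tMCAO/R mouse 4 circled. Foxo3 is higher and Nr3c2 and Foxo4 are lower in every tMCAO/R mouse, whereas Nr3c1, Foxo1 and Foxo6 overlap between the groups.

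Of the 9 genes, all of which passed the minimum of FPKM, 6 were called higher in tMCAO/R mice at an adjusted p below 0.01, 0 were called lower and 3 (Nr3c1, Ddit4 and Foxo1) were not called. Over all 11743 genes tested, 35.6% were called, 17.8% higher and 17.8% lower, and nothing is read from the count because the genes were chosen on this contrast. The same 6 genes had no overlap between the groups, which held for 13.8% of all tested genes in that direction and 27.0% in either. The median log2 difference was 1.08 over the 9 genes and -0.01 over all tested genes. Without tMCAO/R mouse 4, 7 of the 9 genes were called higher (22.4% of all tested genes), the added gene being Ddit4, and with limma-voom on the fragments 6 were (16.8% of 13897 genes).

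**Figure D3:**
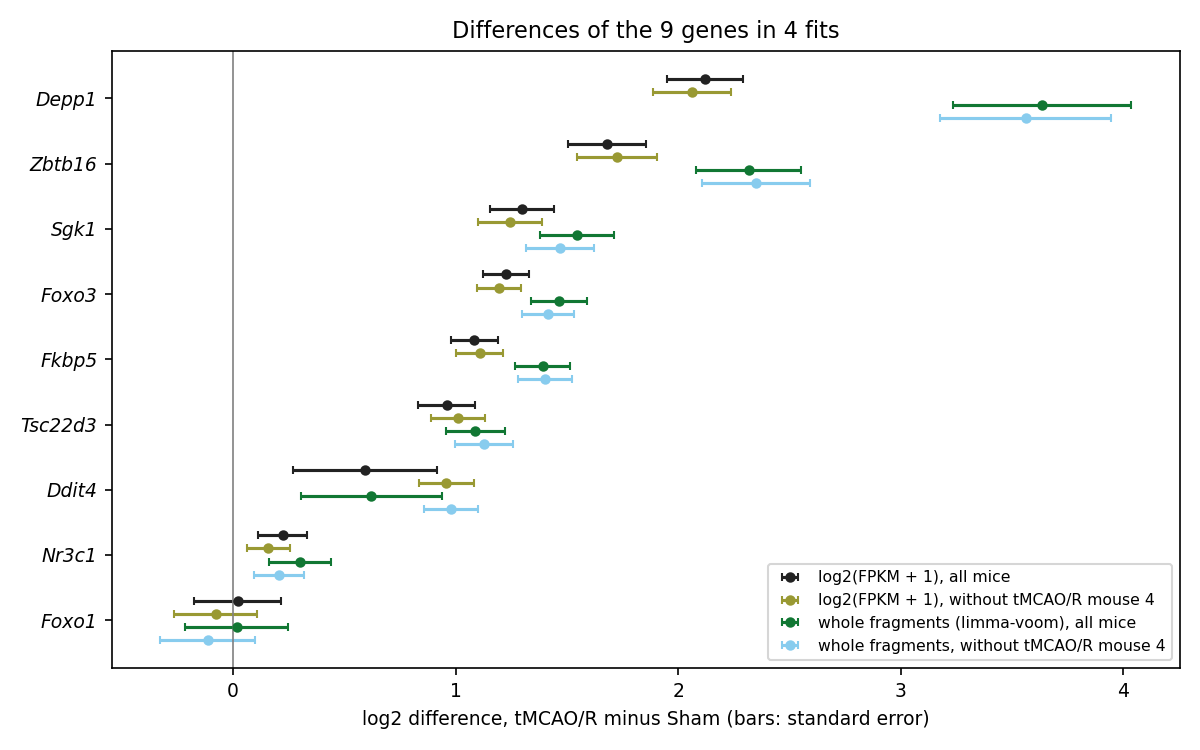
The log2 difference (tMCAO/R minus Sham) of each gene with its standard error, from limma on log2(FPKM + 1) and from limma-voom on fragments, each with all mice and without tMCAO/R mouse 4. Depp1 is highest, at 2.12 on the FPKM scale and 3.64 on the fragments, and the Ddit4 difference is 0.59 with and 0.96 without mouse 4.

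Levels between genes depend on the gene length used. The lengths behind the deposited FPKM exceeded the annotated exon length of GENCODE M39 for 6 of the 9 genes, and the levels were therefore also scaled to that length. On this scale the Sham means ran from Ddit4 (16.9) through Sgk1 (10.8), Nr3c1 (9.76), Tsc22d3 (9.39), Fkbp5 (5.55), Foxo3 (5.31) and Foxo1 (4.49) to Zbtb16 (1.17) and Depp1 (1.04) in FPKM on the annotated length. The neighbours Sgk1 and Nr3c1, Nr3c1 and Tsc22d3, Fkbp5 and Foxo3, and Zbtb16 and Depp1 lay less than 1 SD apart. In tMCAO/R mice Sgk1 (30.5) and Ddit4 (29.0) were highest, followed by Tsc22d3 (20.0), Fkbp5 (14.6), Foxo3 (14.5), Depp1 (12.3), Nr3c1 (11.9), Zbtb16 (5.51) and Foxo1 (4.84). Depp1 thus stood last of the 9 genes in Sham mice and beside Nr3c1 in tMCAO/R mice. The median log2 difference of all tested genes ran from -0.20 in the shortest of 4 equal length classes, with Ddit4 and Depp1, to 0.12 in the longest, with Nr3c1, Fkbp5 and Sgk1.

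Other genes known to be induced by glucocorticoids were then compared. Of 26 listed, 24 were tested, 13 rose, 0 fell and 11 did not pass, against 17.8% called higher and 17.8% lower over all genes, and the list median was 0.58. The lists compared here and below were chosen with earlier results of these data known, so their counts and p-values are a description. Among the genes that rose, Angptl4 reached the minimum of 0.5 FPKM in tMCAO/R mice only (at most 0.433 FPKM in Sham), so it entered the comparison through that group. Nedd9 and Hif3a, which also rose, had Sham means below the minimum (0.428 and 0.274 FPKM) and tMCAO/R means above it (1.23 and 0.838 FPKM). They entered mainly through the tMCAO/R group too, and the count of genes that rose includes them. Cdkn1a, the cell cycle inhibitor p21, rose from 1.01 ± 0.158 to 12.1 ± 2.86 FPKM (log2 difference 2.67, adjusted p = 3.5e-09). Mfsd2a, a lipid transporter of the blood-brain barrier, rose from 2.25 ± 0.256 to 9.44 ± 1.91 FPKM (log2 difference 1.67, adjusted p = 1.3e-07). Cdkn1a is also a p53 target, and the list does not separate the receptor from other regulators.

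The calls of the most abundant genes of this list depended on 1 mouse and on the scaling. Rhob, a small GTPase, had 212 and 287 FPKM on average (log2 difference 0.41, adjusted p = 0.0222), and Glul, the glutamine synthetase of astrocytes, had 174 and 214 FPKM (log2 difference 0.28, adjusted p = 0.114). In tMCAO/R mouse 4 both lay below every Sham mouse, as Ddit4 did. With all mice and quantile normalization both passed, Rhob with a log2 difference of 0.71 (adjusted p = 1.01e-04) and Glul with 0.51 (adjusted p = 9.96e-04). Without tMCAO/R mouse 4, 16 of the 24 genes rose, the added genes being Glul, Arl4d and Rhob, where 22.4% of all tested genes were called higher without that mouse. Mouse 4 was the lowest tMCAO/R mouse for 15 of the 24 genes (62.5%), and for 42.8% of all tested genes. Among further genes of the list, chosen after their values were seen, the transcription factor Klf9 rose from 29.9 to 85.2 FPKM (adjusted p = 8.3e-07) and the clock gene Per1 from 2.62 to 4.65 FPKM (adjusted p = 0.0036). Per1 overlapped between the groups, with tMCAO/R mouse 4 (2.369 FPKM) below the lowest Sham mouse (2.371 FPKM). Rasd1 (25.4 and 17.3 FPKM, log2 difference -0.55, adjusted p = 0.0233) and Gpd1 (17.1 and 14.4 FPKM, log2 difference -0.32, adjusted p = 0.26) were lower on average and did not pass.

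In the receptor machinery, the chaperones, co-activators and enzymes that serve the receptor, 5 of 16 tested genes rose, 4 fell and 7 did not pass, against 17.8% of all tested genes called higher and 17.8% lower. The list median was 0.14. The mineralocorticoid receptor Nr3c2, which also binds glucocorticoids with high affinity and is abundant in the hippocampus, fell from 7.42 ± 1.49 to 1.79 ± 0.276 FPKM (log2 difference -1.58, adjusted p = 1.9e-07). The Sham values lay between 5.59 and 9.68 FPKM and the tMCAO/R values between 1.43 and 2.24 FPKM. Hsd11b1, the enzyme that regenerates active glucocorticoid within cells, fell from 3.82 to 1.26 FPKM (log2 difference -1.10, adjusted p = 3.8e-06). The chaperones Hsp90aa1 (115 to 213 FPKM, log2 difference 0.81, adjusted p = 0.0035) and Hsp90ab1 (246 to 341 FPKM, log2 difference 0.45, adjusted p = 0.0066) rose. The call of Hsp90ab1 was lost when Sham mouse 1, 2, 3, 4 or 5 or tMCAO/R mouse 1, 2 or 3 was left out, with adjusted p-values from 0.0105 to 0.0177. Only 3 genes of this list rose without Sham mouse 2, 4 or 5. Over all 11743 genes 1711, 1750 and 1667 rose in these fits, compared with 2085 with all mice. Only 2 genes of the list fell without Sham mouse 1, 3 or 4 or tMCAO/R mouse 6. Over all genes 1749, 1774, 1705 and 1929 fell in these fits, compared with 2095 with all mice.

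The FPKM ratio of Nr3c2 to Nr3c1 was 2.00 at the lowest, 2.25 at the median and 2.94 at the highest in Sham mice, and 0.338, 0.441 and 0.664 in tMCAO/R mice. The ratio is a description with no test. It rests on the deposited lengths, for Nr3c1 23838 bases against 7877 annotated, and was not rescaled. It therefore does not show which of the 2 receptors was more abundant in either group. All 5 hippocampal markers fell in the same comparison, and their part in the fall of Nr3c2 was not tested.

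Among other FOXO targets, 9 of 22 tested genes rose, 2 fell and 11 did not pass, where 17.8% of all tested genes were called in each direction, and the list median was 0.21. This list shares Pdk4 and Bcl6 with the glucocorticoid list. Sesn3, a sestrin that restrains mTORC1, rose from 4.36 to 11.8 FPKM (log2 difference 1.23, adjusted p = 8.7e-06), and Cited2, a transcriptional co-regulator, from 6.85 to 13.1 FPKM (log2 difference 0.85, adjusted p = 1.4e-05). Pink1, a kinase of mitochondrial quality control, fell from 90.6 to 55.2 FPKM (log2 difference -0.74, adjusted p = 0.0020). The autophagy gene Gabarapl1 had 136 and 116 FPKM (log2 difference -0.26, adjusted p = 0.106).

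Of the FOXO regulators and relatives, 5 of 19 tested genes rose, 1 fell (Foxo4) and 13 did not pass. Over all tested genes 17.8% rose, so the count that rose lay near the background, and the list median was 0.08. Pik3r1, the regulatory subunit of phosphoinositide 3-kinase, rose from 5.64 to 18.7 FPKM (log2 difference 1.57, adjusted p = 1.2e-07). The 14-3-3 genes Ywhab (201 and 199 FPKM, adjusted p = 0.886) and Ywhae (162 and 181 FPKM, adjusted p = 0.301), whose proteins hold phosphorylated FOXO in the cytoplasm, did not pass. Without Sham mouse 3, 4 or 5, 3 genes of this list rose. Over all 11743 genes 1678, 1750 and 1667 rose in these fits, compared with 2085 with all mice. Without tMCAO/R mouse 1, 2 genes of the list fell, where 1866 of all genes did.

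Among the partners of SGK1, GILZ and REDD1, 3 of 15 tested genes rose, 0 fell and 12 did not pass, which for those that rose was near the background of 17.8%. The list median was 0.18. Deptor, an inhibitor of mTOR, rose from 0.765 to 2.59 FPKM (log2 difference 1.02, adjusted p = 1.6e-06), and Tsc22d1, a relative of GILZ, from 15.1 to 24.7 FPKM (log2 difference 0.67, adjusted p = 8.6e-05). Ndrg2, whose protein SGK1 phosphorylates, had 78.7 and 61.8 FPKM (log2 difference -0.34, adjusted p = 0.0161). Without tMCAO/R mouse 4, 5 genes of this list rose, where 22.4% of all tested genes were called higher without that mouse. Without tMCAO/R mouse 3, 1 gene of the list fell, where 1936 of all 11743 genes did.

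**Figure D4:**
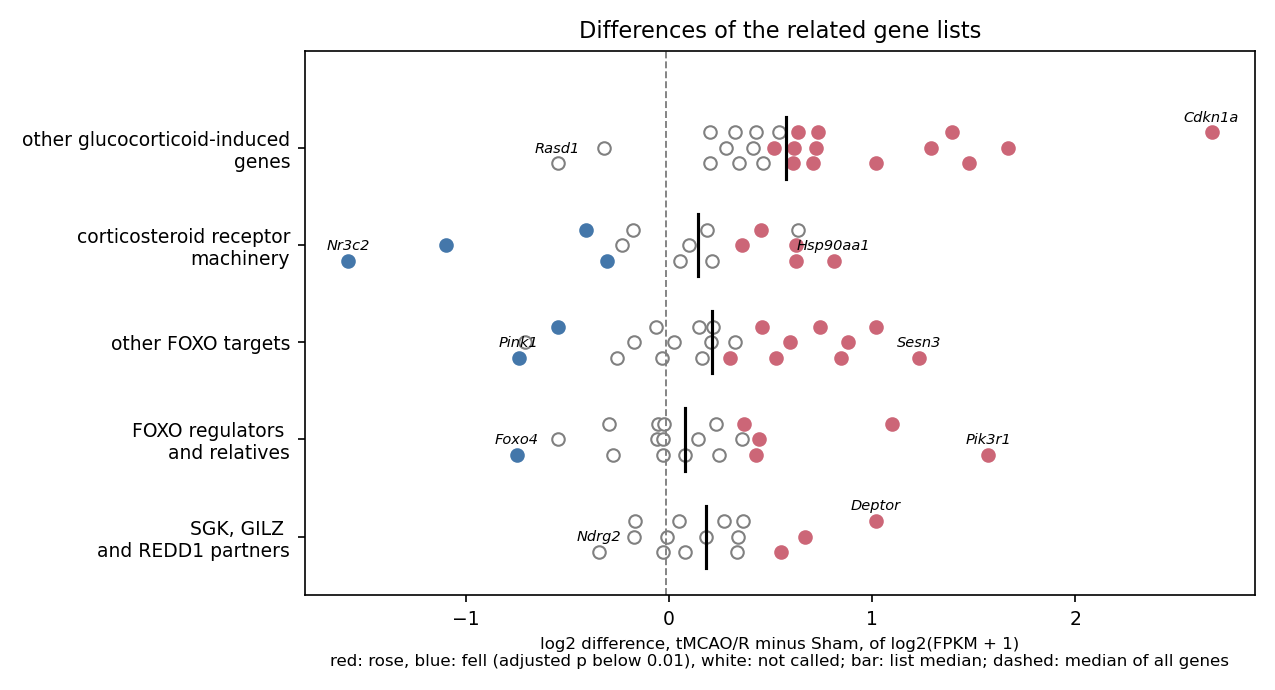
The log2 difference (tMCAO/R minus Sham, on log2(FPKM + 1)) of each tested gene in 5 lists related to the 9 genes, red where the gene rose, blue where it fell and white where it was not called, with a bar at the list median and a dashed line at the median of all genes (-0.01). The glucocorticoid-induced genes have the highest list median, 0.58, and the receptor machinery runs from Nr3c2 at -1.58 to Hsp90aa1 at 0.81.

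Variation between mice of the same group was not used to choose the genes, and it was used to ask whether targets that differ together between groups also vary together within them. With 6 mice per group, a pair that did not pass cannot be read as unrelated. Tissue markers also varied within groups, such as the striatal sums of 31.6 to 346 FPKM in tMCAO/R mice, and their part in the correlations was not tested. For the 6 target genes, 15 pairs were compared in each group, 30 relations in all. In tMCAO/R mice, 9 of 15 Pearson correlations lay above 0, and in Sham mice 7 of 15. Fkbp5 and Tsc22d3 had the closest relation in tMCAO/R mice (r = 0.91, exact permutation p = 0.0208, and rho = 0.94, exact permutation p = 0.0167, n = 6), with mice 2 and 3 highest for both genes. The 2 mice farthest from the median of Fkbp5 were mice 1 and 6, its lowest (4.82 and 4.98 FPKM). Without them r was 0.95, but mice 2 and 3 stayed in, and their part in the relation was not tested. In Sham mice the same pair had r = -0.65 (exact permutation p = 0.168, n = 6), and the difference between the groups was not tested. Sgk1 and Ddit4 had r = -0.72 in tMCAO/R mice (exact permutation p = 0.0389, n = 6), but rho was -0.49 (exact permutation p = 0.356, n = 6), and r was -0.64 without the 2 mice farthest from the median of Sgk1. After Benjamini-Hochberg adjustment over the 30 relations none passed, with a smallest adjusted p of 0.569 for r and 0.5 for rho. In Sham mice Sgk1 and Tsc22d3 had r = 0.78 (exact permutation p = 0.107, n = 6) and rho = 0.26 (exact permutation p = 0.658, n = 6), and r was -0.05 without the 2 mice farthest from the median of Sgk1.

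**Figure D5:**
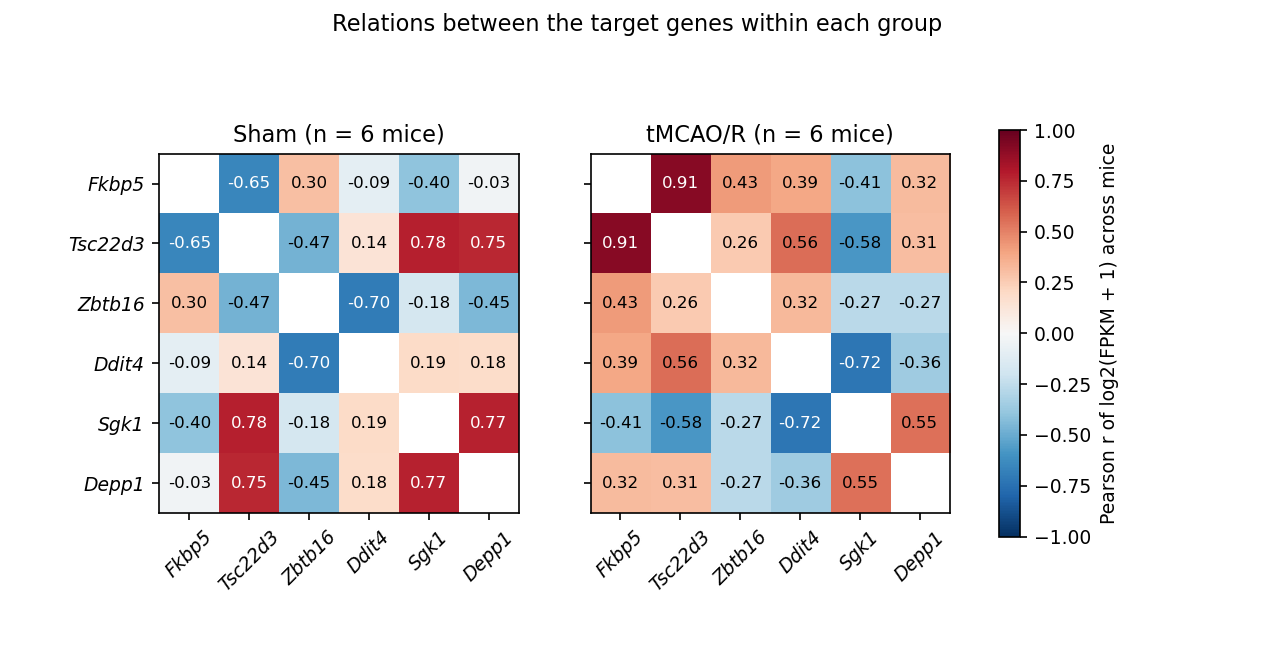
Pearson r of log2(FPKM + 1) across mice between each pair of the 6 target genes, within Sham mice (left, n = 6) and within tMCAO/R mice (right, n = 6), from blue (-1) to red (1). The pair of Fkbp5 and Tsc22d3 reads -0.65 in Sham and 0.91 in tMCAO/R mice, and no pair passed the test after adjustment.

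The genes closest to Fkbp5 and Depp1 across the 12 libraries, after the mean of each group was subtracted, were searched among all tested genes. For Fkbp5 these were Pdcd7 (r = 0.90), Lrrtm3 (r = 0.88) and Tmem177 (r = 0.88). For Depp1 these were H4c8 (r = 0.95), Gtf2h2 (r = 0.95) and Rnf113a2 (r = 0.90). Without tMCAO/R mouse 4 these values lay between 0.87 and 0.95. They are the highest among the 11743 genes tested, share the libraries and their depth, and are given as a description.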

How the data were processed

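Poly(A) RNA from the penumbra of 12 mice, 1 library each, was sequenced in paired ends. According to the processing notes, the authors' tools were fastp (no version stated), HISAT2 2.2.1 on the build GRCm39, HTSeq 2.0.2 and DESeq2 1.24.0. The deposited values are FPKM, 1 column per library. The annotation release, strand setting and gene filter are not given in the sources used here. Exons of unlisted lncRNAs overlap Nr3c1, Fkbp5, Sgk1, Foxo1 and Foxo3 on the opposite strand, and without the strand setting their reads cannot be told apart.

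FPKM values were whole multiples of 1 fragment for 14314 of 14317 genes (99.979%, tolerance 1e-05), which gave the fragments per gene and library. The 11743 genes that reached 0.5 FPKM in 6 or more libraries (2574 did not) were compared on log2(FPKM + 1) by limma 3.58.1 with trend, run in R 4.3.3, with no covariate, two-sided, with Benjamini-Hochberg adjustment over all tested genes. Rose and fell mean an adjusted p below 0.01. A limma-voom fit on the fragments, for genes with at least 10 fragments in at least 6 libraries, was the count alternative. The other alternatives covered the pseudocount (0.1 and 0.5 FPKM), the filter, quantile and upper quartile scaling, a threshold of 0.05, the replicate block and each library left out, and limma-voom without tMCAO/R mouse 4 was added after seeing the data. Correlations used exact permutations in scipy 1.17.1. Scripts for both tests were tested on simulated data. The spread between mice was used as the error, so no counting interval is given.

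The 9 genes and the lists were chosen with earlier results of these data known. From each list the text names the 2 called genes with the smallest p and the 2 tested genes with the highest mean FPKM, and for Fkbp5 and Depp1 the 3 most similar genes. A result that this rule would take is not reported here.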

Additional observations from a re-analysis of the deposited data

Results flagged for a closer look

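In 6 of the 54 pairs of gene and group examined, 1 mouse lay far from the other 5 by Dixon's criterion, which chance meets in about 1 of 20 groups. Among the genes described, these were Sgk1 in Sham mouse 4 (6.09 FPKM, with 3.61 FPKM in the next mouse), Zbtb16 in Sham mouse 6 (2.82 FPKM, next 1.47 FPKM) and Foxo3 in Sham mouse 6 (4.55 FPKM, next 3.55 FPKM). Each of these was the highest Sham value and still lay below the lowest tMCAO/R mouse. Among the list genes, Cited2 was high in tMCAO/R mouse 2 (16.6 FPKM, next 13.0 FPKM). In tMCAO/R mouse 4, Ywhab (262 FPKM, next 193 FPKM) and Ywhae (243 FPKM, next 181 FPKM) were high.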

How the results depend on the processing

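Among the 9 genes the log2 difference of Foxo1, which was near 0, changed sign: it was 0.02 with all mice, -0.02 with quantile normalization and with upper quartile scaling, -0.11 with limma-voom without tMCAO/R mouse 4, and between -0.11 and 0.17 with each mouse left out, below 0 without Sham mouse 4 or 5 or tMCAO/R mouse 1 or 4. The other 8 kept their sign under the alternatives run, as did the named list genes that passed the test, and among the 9 genes only the call of Ddit4 changed. It was called without tMCAO/R mouse 4 (0.96) and with limma-voom without that mouse (0.98), and its range with each mouse left out was 0.48 to 0.96. With each library left out in turn, 1667 to 2629 genes rose and 1696 to 2491 fell. The corresponding ranges were 11 to 16 for glucocorticoid-induced genes that rose and 0 to 1 that fell, and 8 to 10 for other FOXO targets that rose. With a mean of at least 1 FPKM as the filter, 11 of 22 tested glucocorticoid-induced genes rose, where 1916 of all 10139 genes did. For receptor machinery genes 3 to 6 rose and 2 to 4 fell, and for FOXO regulators 3 to 6 rose and 1 to 2 fell. Among the partners of SGK1, GILZ and REDD1, 2 to 5 rose and 0 to 1 fell. With limma-voom without tMCAO/R mouse 4, 6 of 16 tested partners rose and 1 fell, where 2918 of 13829 genes rose and 2836 fell. Of these partners, 1 fell with no filter (2359 of all 14317 genes fell), upper quartile scaling (2472 of 11743) or limma-voom (2328 of 13897). The causes of these moves were not tested, beyond the smaller groups when a mouse is left out. At an adjusted p of 0.05, 2930 genes rose and 3071 fell.

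No pairing by replicate number was seen in the expression values. Same-numbered libraries deviated from their group means with correlations of -0.12 to 0.22, and none correlated best with its own number. This check cannot exclude handling shared by number, because other differences between the libraries also enter the deviations. With the replicate block, 10 glucocorticoid-induced genes rose, 3 receptor machinery genes rose and 2 fell, and 3 FOXO regulators rose. Over all tested genes 1761 rose and 1699 fell with the block. Of the named list genes, the calls of Glul, Hsp90ab1, Ndrg2 and Rhob changed under at least 1 of the alternatives. The Depp1 values in Sham mice rest on few fragments, which limits the precision of its fold difference.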
